A study of Mus musculus with 4 samples.

Results

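The miR-106b-25 cluster is a set of 3 miRNA hairpins, Mir106b, Mir93 and Mir25, that lie within the gene Mcm7 on mouse chromosome 5. Its members were chosen by the miRNA name of the array's probes. They are mmu-miR-106b and its opposite strand mmu-miR-106b*, mmu-miR-93 and its opposite strand mmu-miR-93*, and mmu-miR-25, which makes 5 of the 577 miRNA names on the array. The mouse prefix is left off below. The opposite strand of miR-25 was not analysed here. The cluster was singled out with the difference between siLin28a and siGFP already known, so that difference is given below as a description with no test.

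The RNA came from A3-1, a line of mouse embryonic stem cells. It was cultured in serum-containing medium with LIF, the cytokine used to hold these cells in the undifferentiated state. One group received an siRNA against Lin28a, and the control group received an siRNA against GFP, a jellyfish protein with no mouse counterpart. All cells were harvested 48 h after treatment. Each group had 2 replicates, and 100 ng of total RNA from each was hybridised to 1 single-colour Agilent array. LIN28A is an RNA-binding protein that blocks the maturation of let-7 precursors. The knockdown was made in 1 cell line, and Lin28a mRNA is not measured on a miRNA array.

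MCM7, the product of the host gene, is a subunit of the helicase that unwinds DNA at replication forks, and the cluster is known to be transcribed with it from an intron. miR-106b and miR-93 belong to the miR-17 seed family, which represses cell cycle inhibitors such as Cdkn1a and members of the TGF-beta pathway. miR-25 belongs to the miR-92 family, known to repress the pro-apoptotic gene Bcl2l11. Both families also have members in the paralogous miR-17-92 and miR-106a-363 clusters.

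The mature sequences show which members share a seed, the stretch of bases 2 to 8 that pairs with targets. All 5 members were matched to RefSeq (GRCm38.p6), and the seed is in capitals.
miR-106b: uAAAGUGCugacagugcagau
miR-93: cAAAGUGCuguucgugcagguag
miR-25: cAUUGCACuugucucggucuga
miR-106b*: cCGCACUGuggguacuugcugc
miR-93*: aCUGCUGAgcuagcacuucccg
miR-106b and miR-93 have the same seed, and outside it they differ, so that 5 of the 21 positions aligned from the first base are unlike. miR-25 has a seed of its own within the cluster.

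The paralogs with the same seeds are shown because the comparison below sets each member against them. miR-17, miR-20a and a copy of miR-92a come from chromosome 14, and miR-106a, miR-20b, miR-363 and the other copy of miR-92a from chromosome X.
miR-17: cAAAGUGCuuacagugcagguag
miR-20a: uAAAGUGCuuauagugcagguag
miR-106a: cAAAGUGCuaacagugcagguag
miR-20b: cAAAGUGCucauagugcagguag
miR-92a: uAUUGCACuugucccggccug
miR-363: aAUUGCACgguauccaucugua
miR-106b differed from miR-17, miR-20a and miR-106a at 3 of 21 positions each. miR-93 differed from miR-20b at 3 of 23 positions and from each of the other three at 4. miR-25 differed from miR-92a at 3 of 21 positions and from miR-363 at 13 of 22. miR-17 and miR-106a differed at 1 of 23 positions, and how far a probe of one paralog reads another was not tested.

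The 3 hairpins lie on the minus strand within 498 bases, in the order Mir106b, Mir93 and Mir25 along the transcript. In GRCm38.p6 they occupy chr5:138165737-138165818, chr5:138165523-138165610 and chr5:138165321-138165404, inside the bounds of Mcm7 at chr5:138164583-138172111. The annotation used here gives no exon bounds. They are shown with the strands that the array has probes for in capitals. The bases between the arms form the terminal loop, which LIN28 proteins contact in let-7 precursors. In Mir25 the 5p strand is not in capitals, and the loop runs from base 36 to base 51.
Mir106b: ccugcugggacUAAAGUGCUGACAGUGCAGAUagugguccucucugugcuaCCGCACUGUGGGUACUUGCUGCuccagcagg
Mir93: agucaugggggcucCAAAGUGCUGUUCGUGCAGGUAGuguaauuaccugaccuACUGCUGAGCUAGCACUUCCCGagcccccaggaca
Mir25: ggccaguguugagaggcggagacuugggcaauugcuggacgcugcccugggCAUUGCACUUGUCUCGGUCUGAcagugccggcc
The loops between the arms are 19, 16 and 16 bases long. The letters GGAG, the motif that the zinc knuckles of LIN28 bind in let-7 loops, were searched on the transcribed strand. They were not in the Mir106b or Mir93 hairpin and occurred 1 time in Mir25, from base 18 of the hairpin, within the 5p arm and outside the loop. Of 1005 mouse hairpins in the table, 44.5% hold these letters.

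All 4 arrays lay on 1 slide. Between 32.5% and 38.8% of their spots were well above background, with the highest share on siLin28a replicate 2, and the 75th percentile signal used for scaling was 220 to 265. Of 231 miRNAs tested with limma, 2 (let-7a and let-7f) were called higher with siLin28a at an adjusted p below 0.05, and 0 were called lower, while 57 had an unadjusted p below 0.05. The labels do not say whether replicates are separate cultures, so the spread between them may be technical. Markers were counted as detected by the call that the Feature Extraction software makes per miRNA, a different rule from well above background. The 9 markers of naive mouse embryonic stem cells on the array, all strands of the miR-290 cluster, were detected on all 4 arrays. Of 5 markers of primed pluripotent cells (miR-302a to miR-302d and miR-367), 4 were not detected on any array. Their summed signal was 12.3 to 27.6 units with siGFP and 20.0 to 42.9 units with siLin28a. None of 3 muscle and 2 endoderm markers was detected. Of 6 fibroblast or feeder markers 3 were detected on all arrays, with a summed signal of 315 to 378 units against 386 to 420 units. When only probes well above background on all 4 arrays were kept, 2 of these markers had a value. Of 3 neural and 4 blood markers, 2 each were detected on all arrays, with sums of 184 to 221 units against 206 to 284 units, and of 101 to 127 units against 110 to 159 units. All these sums are signals before scaling, and both siLin28a arrays were brighter in general. With scaling, the tested fibroblast or feeder markers had log2 differences, siLin28a minus siGFP, from -0.35 to 0.10, with a median of -0.0007. The medians of the tested neural and blood markers were 0.07 and 0.008. The part of such cells in the results below was not tested.

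The guide strands of the cluster were bright in both groups, and each was slightly higher with siLin28a. Signals are given relative to the array's 75th percentile, taken over probes well above background on all 4 arrays, so a scaled signal of 1 is that percentile. A miRNA's value is the mean log2 scaled signal of its probes, given here also on the linear scale. miR-106b, the first hairpin's guide strand, had scaled signals of 2.11 and 2.19 with siGFP and of 2.61 and 2.37 with siLin28a, for replicates 1 and 2 in turn. The lower siLin28a array lay above the higher siGFP array, by 0.11 on the log2 scale. The log2 difference of the means, siLin28a minus siGFP, was 0.21 (SE 0.08, n = 2 per group), or 1.16-fold.

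miR-93, which has the same seed, had scaled signals of 1.52 and 1.67 with siGFP and of 1.73 and 1.85 with siLin28a. Its log2 difference was 0.17 (SE 0.08, n = 2 per group). The groups were 0.05 apart, less than the 0.13 by which the siGFP arrays differed from each other. miR-25 had scaled signals of 1.55 and 1.74 with siGFP and of 1.80 and 1.92 with siLin28a. Its log2 difference was 0.18 (SE 0.09, n = 2 per group). Here too the gap between the groups, 0.05, was smaller than the 0.17 between the siGFP arrays. In bulk RNA, fewer cells with a miRNA and less of it per cell cannot be told apart.

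**Figure D1:**
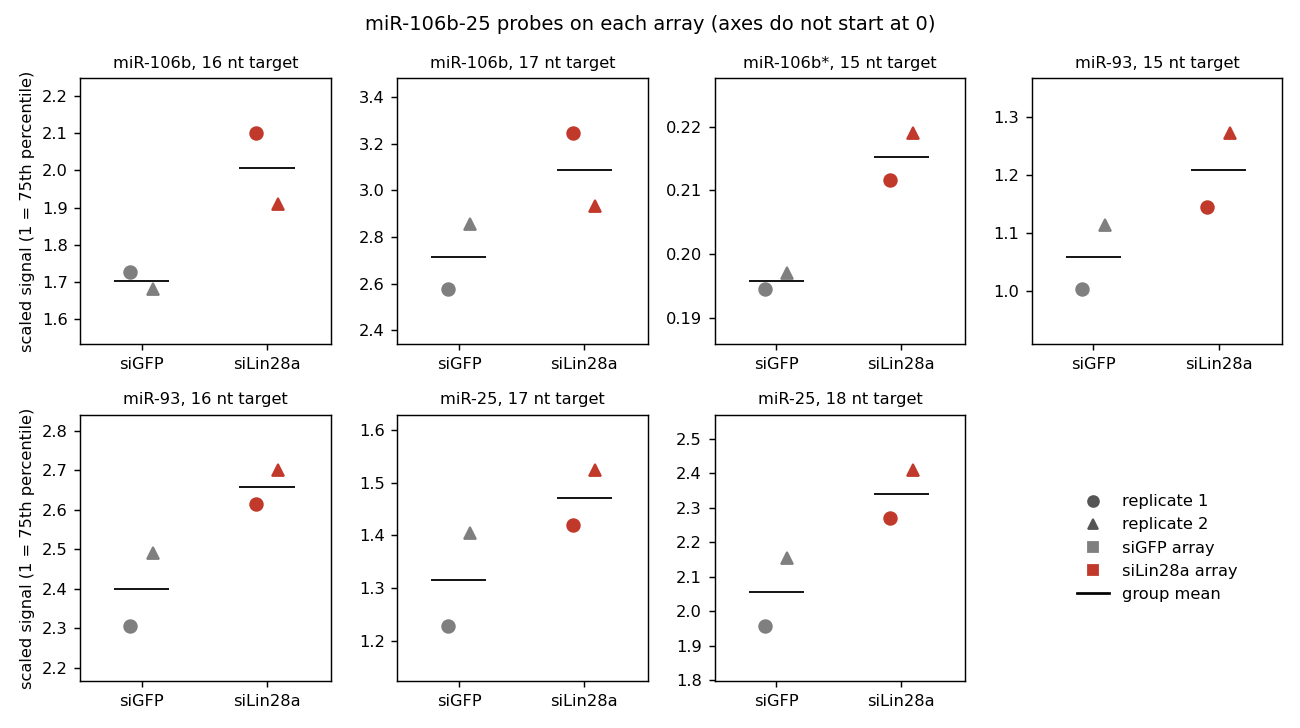
Scaled signal (1 is the 75th percentile of the array) of the 7 probes of miR-106b, miR-106b*, miR-93 and miR-25 that were well above background, with a panel for each probe, grey for siGFP, red for siLin28a, circles for replicate 1 and triangles for replicate 2. Black lines are group means and the axes do not start at 0. Both siLin28a arrays lie above both siGFP arrays in all 7 panels, and miR-106b is the only member whose siLin28a replicate 1 lies above replicate 2.

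The opposite strands of the hairpins were dim. miR-106b* was measured by 1 of its 4 probes, with scaled signals of 0.194 and 0.197 with siGFP and of 0.212 and 0.219 with siLin28a. The groups did not overlap. Its log2 difference was 0.14 (SE 0.10, n = 2 per group). The other 3 probes had mean signals between -5.67 and 9.14 units, and none of their spots was well above background. miR-93* was not detected on any array. Its 4 probes had mean signals of -5.29 to 7.16 units, and 1 of 80 spot readings was well above background. It was therefore not tested, and no fold is given.

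The balance between the strands of the miR-106b hairpin had no settled direction. The log2 ratio of miR-106b to miR-106b* on each array, relative to its siGFP mean, was -0.02 and 0.02 with siGFP and 0.17 and -0.02 with siLin28a. The groups overlapped. The shift of 0.07 was smaller than the SD of 0.10 between replicates, and it ranged from -0.08 with the deposited table of total gene signal to 0.23 with quantile normalization and 0.39 with normexp.

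The probes of a member gave like differences. miR-106b had a probe for a target of 17 bases (chr5:138607015-138607031 in build mm9, which the array files use) and a probe for 16 of these bases. Their log2 differences were 0.19 and 0.23. The probes of miR-93 (chr5:138606802-138606817 and 1 base less) differed by 0.15 and 0.19 between the groups. Those of miR-25 (chr5:138606560-138606577 and 1 base less) differed by 0.19 and 0.16. The measured probe of miR-106b* reads chr5:138606974-138606988. Both siLin28a arrays were above both siGFP arrays for 7 of 7 probes well above background, as for 31.4% of the 477 probes of all miRNAs that passed the same filter. The members were chosen for being higher, so this count is a description. Each of the 6 guide probes was spotted 10 times per array and that of miR-106b* 5 times, and the SD over spots was 2.83% to 12.6% of the mean. Probes of 1 member overlap in sequence and are not separate evidence.

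Before scaling, the differences were larger. The total gene signal, which Feature Extraction sums over the probes of a miRNA, was 672 and 726 units for miR-106b with siGFP and 944 and 930 units with siLin28a. The means were 699 ± 38.0 and 937 ± 10.5 units (SD, n = 2 each), a ratio of 1.34. For miR-93 the total signals were 517 and 577 units against 664 and 763 units, with means of 547 ± 42.5 and 713 ± 69.7 units (SD, n = 2 each). For miR-25 they were 498 and 570 units against 652 and 755 units, a ratio of 1.32. miR-106b* had 14.3 and 15.6 units against 19.1 and 23.3 units, a ratio of 1.41, with an error of 3.21 to 3.55 units per array by Feature Extraction's own model. Both siLin28a arrays were brighter in general, and the tested miRNAs had a median log2 difference of 0.19 without scaling.

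Read against the whole array, differences of this size were common. The 4 tested members were all higher with siLin28a without overlap of the groups, as were 30.7% of all 231 tested miRNAs. Counting means alone, 49.4% of the tested miRNAs were higher. The members were chosen for this pattern, so nothing is read from their count. limma called 0.866% of the tested miRNAs higher and 0% lower. The median log2 difference of the 4 members was 0.17, against 0 for all tested miRNAs. The members ranked from 65 to 75 of 231 in the log2 difference, so 32.5% of the tested miRNAs had a difference at least as large as that of miR-106b*.

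The direction of the members depends on the scaling. With the 75th percentile taken over all probes, the median of all tested miRNAs moved to -0.16 and that of the members to -0.00142, with miR-106b at 0.04, miR-25 at 0.0016, miR-93 at -0.0045 and miR-106b* at -0.04. Relative to the median of all tested miRNAs, the median of the members was higher by 0.15 in that setting, by 0.18 with no scaling and by 0.17 as reported. Single arrays also weigh on the values. miR-25 was at 0.09 and miR-93 at 0.10 without siGFP replicate 1, and miR-106b was at 0.14 without siLin28a replicate 1.

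**Figure D2:**
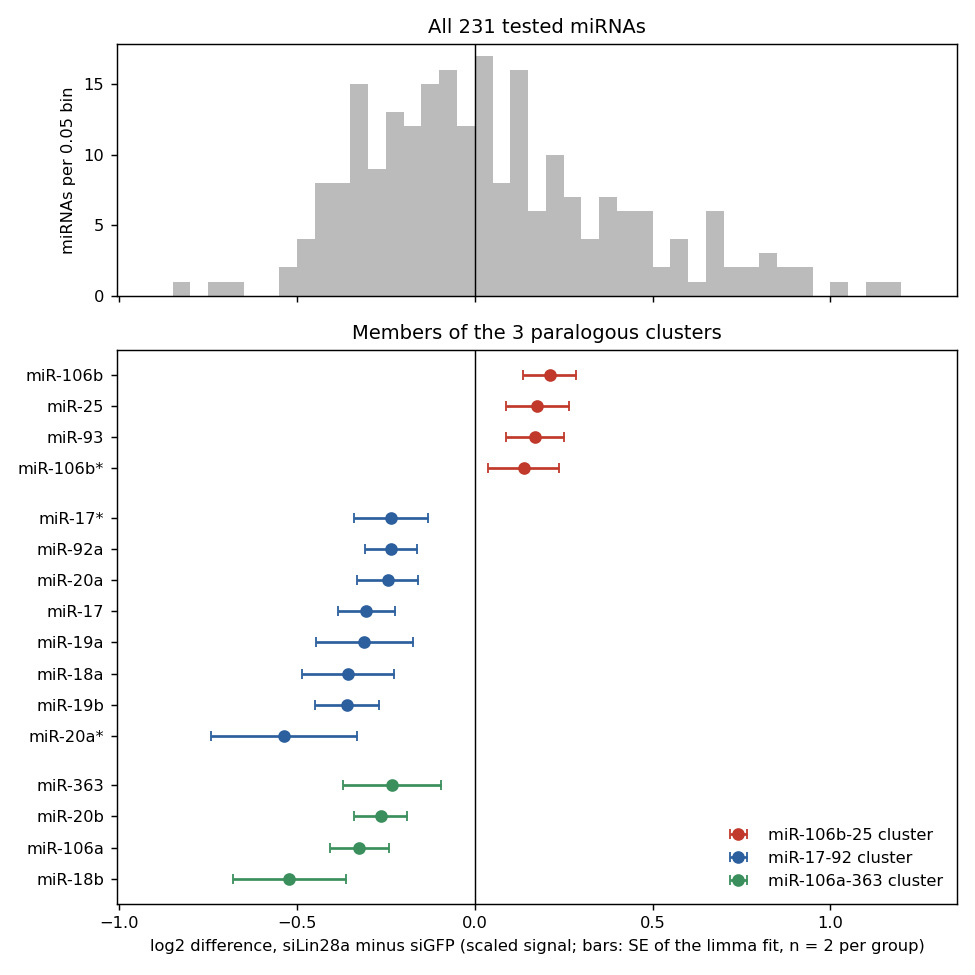
Top, the number of tested miRNAs by log2 difference, siLin28a minus siGFP, in bins of 0.05 for all 231 tested miRNAs. Bottom, the log2 difference of each tested member of the miR-106b-25 (red), miR-17-92 (blue) and miR-106a-363 (green) clusters, where points are differences of means and bars the SE of the limma fit (n = 2 per group). The red points lie between 0.14 and 0.21, and all blue and green points lie between -0.54 and -0.23.

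The paralogous clusters lay on the other side of 0. All 12 tested members of the miR-17-92 and miR-106a-363 clusters were lower with siLin28a without overlap of the groups, as were 30.7% of all tested miRNAs. With limma, 0 of these 12 were called, while 6 had p below 0.05 before adjustment, as did 11.3% of all tested miRNAs in this direction. The median log2 difference was -0.31 over 8 members of miR-17-92 and -0.29 over 4 of miR-106a-363. miR-19b and miR-92a each have copies on chromosomes 14 and X, and they were counted under miR-17-92 only. miR-18a, miR-19a and miR-19b, whose seeds have no counterpart in the miR-106b-25 cluster, differed by -0.36 (SE 0.13), -0.31 (SE 0.14) and -0.36 (SE 0.09). These lists were drawn up with earlier results of these data known. The largest drops of the 12 were those of miR-20a* (-0.54) and miR-18b (-0.52), which were dim. Their scaled signals with siLin28a were 0.105 and 0.101, and 0.121 and 0.116, close to 0.0948, the floor set for dim signals. miR-18a*, miR-19a*, miR-92a* and miR-20b* were on the array but not well above background, and miR-19b*, miR-106a* and miR-363* were not analysed here.

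Within the seed families the split followed the cluster. In the AAAGUGC family, miR-106b and miR-93 were higher with siLin28a, and miR-17 (-0.31, SE 0.08), miR-20a (-0.25, SE 0.09), miR-106a (-0.32, SE 0.08) and miR-20b (-0.27, SE 0.07) were lower, each without overlap of the groups. miR-20a had scaled signals of 4.27 and 4.37 with siGFP and of 3.89 and 3.42 with siLin28a. miR-17 had 0.910 and 0.979 against 0.780 and 0.748. In the AUUGCAC family, miR-25 was higher, and miR-92a (-0.24, SE 0.07), miR-363 (-0.23, SE 0.14) and miR-32 (-0.41, SE 0.24) were lower, again without overlap. miR-92a, which is made from both other clusters, had scaled signals of 4.27 and 4.71 against 3.74 and 3.86. miR-92b and miR-367, of the same seed, were not tested because they were not well above background.

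The AAGUGC letters are shared more widely, among others with 3p strands of the miR-290 cluster. A list of 8 such miRNAs on the array outside the AAAGUGC family was followed, which does not hold every such miRNA. Of these 8, 5 were tested, with a median log2 difference of -0.11. All 5 had a lower mean with siLin28a, as did 49.4% of all tested miRNAs, and the groups did not overlap for 3 of them, against 30.7% of all tested miRNAs. This direction depends on the processing: 4 of the 5 were higher with no scaling (median 0.09) and 3 of the 5 with normexp (median 0.06). miR-291a-3p differed by -0.11, miR-294 by -0.06 and miR-295 by -0.07. The list leaves out miR-292-3p, a bright 3p strand of the miR-290 cluster, which went the other way as reported, by 0.06, with overlapping groups. The 5 therefore do not give the direction of all miRNAs with these letters.

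A ratio between miRNAs on the same array does not depend on the factor by which the array is scaled. The log2 ratio of each member to a paralog with the same seed was followed over the arrays for 10 pairs, each set to 0 at its siGFP mean. On the siGFP arrays these values lay between -0.05 and 0.05, and on the siLin28a arrays between 0.27 and 0.59. The siLin28a arrays were above the siGFP arrays in 10 of 10 pairs. Since each member was higher and each paralog lower without overlap, this count was fixed in advance. The pairs share members and paralogs, and they restate the differences above, so they are 1 description and not 10 separate ones. The shift in the ratio was 0.41 to 0.53 on the log2 scale, or 1.33-fold to 1.45-fold.

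miR-106b against miR-20a was at -0.01 and 0.01 with siGFP and at 0.43 and 0.48 with siLin28a, a shift of 0.46 with an SD between replicates of 0.03. miR-106b against miR-20b was at 0.01 and -0.01 with siGFP and at 0.48 and 0.47 with siLin28a, a shift of 0.48 (SD 0.02). These were among the pairs with the closest replicates. miR-93 against miR-20a was at -0.05 and 0.05 with siGFP and at 0.27 and 0.56 with siLin28a, and its SD of 0.15 was the largest of the 10. miR-25 against miR-92a was at -0.01 and 0.01 with siGFP and at 0.39 and 0.44 with siLin28a, a shift of 0.41 (SD 0.03). miR-25 against miR-363 was at 0.04 and -0.04 with siGFP and at 0.33 and 0.49 with siLin28a. In the 10 pairs the gap between the groups exceeded the distance between the arrays of a group, except for miR-93 against miR-20a, where the gap of 0.22 was smaller than the 0.29 between the siLin28a arrays.

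**Figure D3:**
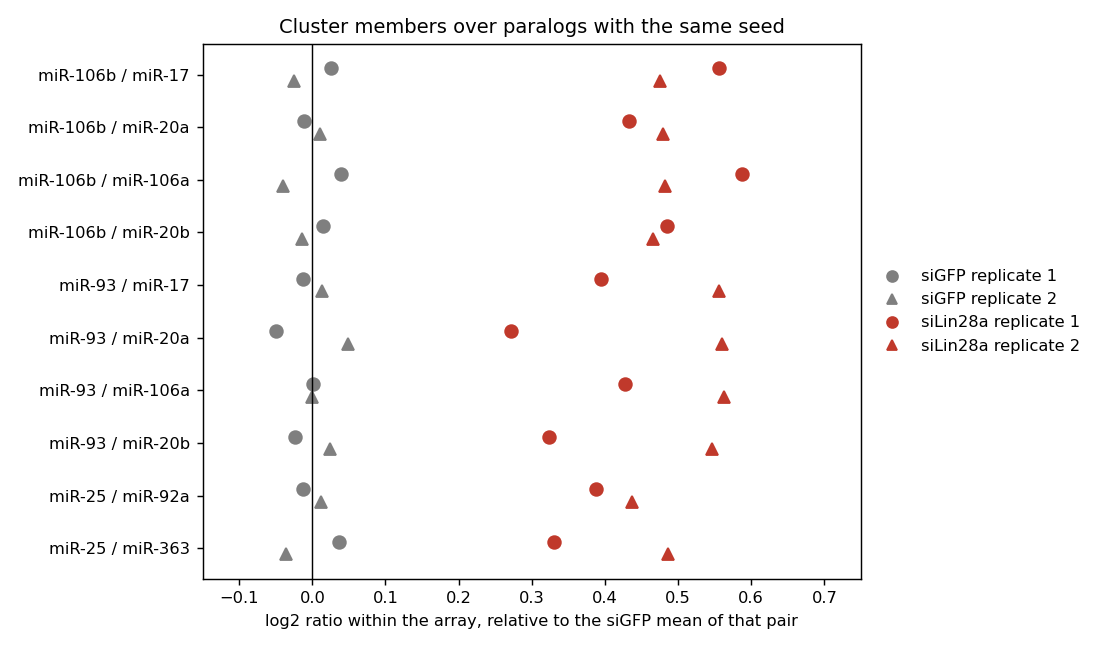
Log2 ratio of a cluster member to a paralog with the same seed, within each array and relative to the mean of the siGFP arrays for that pair, for 10 pairs. Grey marks are siGFP and red marks siLin28a arrays, circles replicate 1 and triangles replicate 2. The siGFP values lie between -0.05 and 0.05 and the siLin28a values between 0.27 and 0.59.

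Of the 18 alternatives, 7 left these ratios as they were, among them each change of the scale factor. In the other 11 the ratios moved and stayed above 0. The shift for miR-25 against miR-92a was 0.22 with quantile normalization. The shifts for miR-106b and miR-93 against miR-106a were 0.92 and 0.93 when spots flagged as outliers were kept. The 12 paralogs had no higher mean in any alternative, while all 4 members of the miR-106b-25 cluster were higher in each setting except the scaling over all probes (2 of 4) and the normexp background correction (3 of 4).

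**Figure D4:**
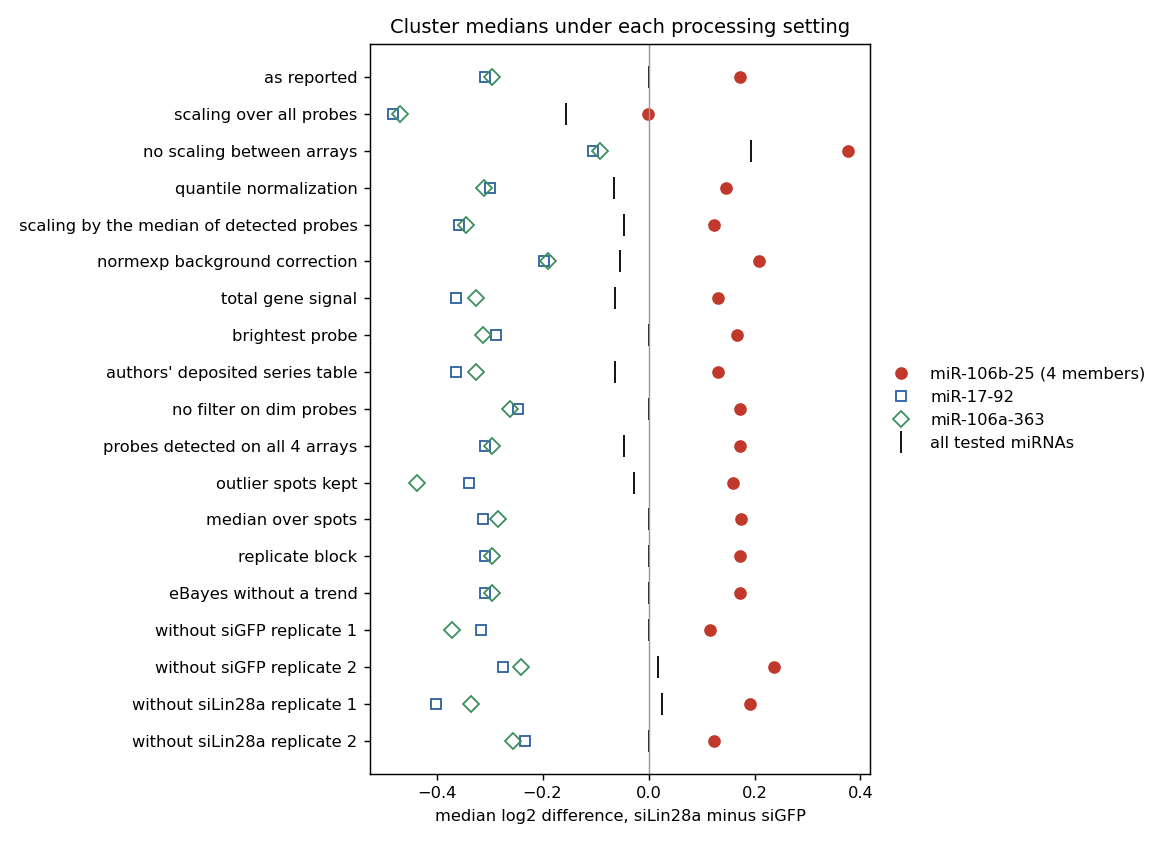
Median log2 difference, siLin28a minus siGFP, under each processing setting for the 4 tested members of the miR-106b-25 cluster (red circles), for the tested members of miR-17-92 (blue squares) and miR-106a-363 (green diamonds), and for all tested miRNAs (black bars). The red circles lie to the right of the black bars in every setting, by 0.12 to 0.26, and reach -0.00142 with the scaling over all probes, while the squares and diamonds lie between -0.48 and -0.09.

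The members had similar but not identical profiles over the 4 arrays. Likeness was measured as the root mean square distance between log2 profiles, each centred on its own mean over the 4 arrays. The farthest member lay 0.06 from the mean profile of the 4 members, and 11 of 227 other tested miRNAs lay at least as near. The nearest 3 were miR-16 (distance 0.03), miR-30e (0.03) and miR-361 (0.03), against a median distance of 0.20 over the other tested miRNAs. Their log2 differences were 0.13, 0.12 and 0.14. For miR-25 alone the nearest were miR-292-5p (0.03), miR-219 (0.04) and miR-128 (0.04). With 4 arrays this is a description of the arrays only.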

How the data were processed

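The 4 arrays carry RNA from 2 siGFP and 2 siLin28a replicates, grouped by the sample titles. The deposited scanner files hold linear spot intensity from Agilent Feature Extraction, version 9.5.1.1 per the file headers and 9.5.3.1 per the submitters' processing notes. Probe positions are on build mm9, and the processed intensity is the mean spot signal minus a spatial background surface. The authors' deposited series table holds the total gene signal, with values at or below 0 written as 0.

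Flagged outlier spots were left out and spots averaged for each of 1712 probes. Signals were divided by the array's 75th percentile over 425 probes well above background on all arrays, floored at 0.0948 and taken to log2. Averaging the 477 probes that passed the background flag in both replicates of either group gave 231 miRNAs. This filter favours higher counts: 12 of the miRNAs had no probe above background with siGFP, and 0 had none with siLin28a. limma 3.58.1 in R 4.3.3 (eBayes with a trend, Benjamini-Hochberg, two-sided, n = 2 per group) gave differences, SE and the background calls, and was tested on simulated data. Members were given no p-value.

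The members and lists were chosen with earlier results of these data known. Named miRNAs were all members, the paralogs, the seed families and the nearest 3 by profile. Marker lists were checked by detection. Alternatives changed scaling, background correction, probe summary, filters, spot handling, the replicate block and the arrays used. The number of arrays limits the precision.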

Additional observations from a re-analysis of the deposited data

How the results depend on the processing

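Of 342 values recomputed under 18 alternatives, 127 did not move at all, many by construction, since a scale factor cancels in a ratio and the replicate block leaves every difference as it is. Of the 215 that moved, 166 did so by less than the spread between replicates (for counts, by no more than 1.5 times), and 7 changed sign. With the scaling over all probes the median log2 difference of the members was -0.00142, 2 of the 4 members were higher, miR-106b* was at -0.0372 and miR-93 at -0.0045, and 0 miRNAs were called. With no scaling the median was 0.38. With normexp, miR-106b* was at -0.12, the median shift against shared-seed paralogs was 0.42, the shift of miR-106b against miR-106b* was 0.39 and 0 miRNAs were called. With the brightest probe the median shift against paralogs was 0.43. The strand ratio of the miR-106b hairpin shifted by 0.23 with quantile normalization, by 0.18 with no filter on dim probes, by -0.0721 with the total gene signal and by -0.0753 with the deposited table, so its direction is not settled. Calls over all miRNAs numbered 8 with the total gene signal, 8 with the deposited table, 48 with no filter and 0 with probes detected on all 4 arrays. With 1 array left out, the median of the members ranged from 0.12 to 0.24, the median shift against paralogs from 0.41 to 0.48, the strand ratio from -0.0226 (without siLin28a replicate 1) to 0.17 and the calls from 0 to 11. The cause of these moves was not tested. Replicate numbers are shared between groups, but nothing states that they pair the samples. With the replicate block the median of the members was 0.17 and 2 miRNAs were called, as without it. Deviations of same-numbered arrays correlated at 0.71 over 231 miRNAs, with 2 pairs only, and the numbers go with position on the slide. Signal over background limits the dim strands: miR-93* gave no value, and miR-106b* rests on 1 probe.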
